A study of Mus musculus with 4 samples.

Results

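The SOCS family (suppressors of cytokine signalling) comprises 8 genes, Socs1 to Socs7 and Cish, and its RNA was followed here in the small intestinal epithelium of mice with the G181R or the wild-type form of D-amino acid oxidase (DAO). The members were taken as the array probes that carry one of those 8 gene names, which gave 17 of 56605 probes and 8 of 37325 gene names. Cish, Socs1, Socs3, Socs5 and Socs7 had 1 probe each, Socs2 had 4, Socs4 had 3 and Socs6 had 5. All members were well above background on all 4 arrays at their brightest probe, 15 of the 17 probes were so, and the other 2, both of Socs6, were so on no array.

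The 4 groups were ileum and jejunum of mice with the G181R form of DAO on both alleles (DAOG181R/G181R) and ileum and jejunum of mice with the wild-type form (DAOwt/wt). G181R is an amino acid change in the oxidase known to remove most of its activity. Every group, the wild-type one included, was Tcrbd-/-: these mice lack the beta and delta chains of the T cell receptor, so they have no T cells with a receptor but keep B cells, myeloid cells and innate lymphoid cells. The mice were on the C57BL/6J background and 9 weeks old, the epithelium was scraped off mechanically, and RNA of 5 mice was pooled for the 1 array of each group, from 100 ng of RNA. With 1 array a group there is no error between mice and no p-value, and every difference below is a difference between 2 pools. Error could be read only from spots printed repeatedly on an array, whose log2 differences between genotypes had a median SD of 0.0429 (ileum) and 0.0394 (jejunum). That spread leaves out mice, pools and labelling.

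Cytokine receptors without a kinase of their own signal through Janus kinases (JAKs), which phosphorylate STAT transcription factors, and the STATs switch on Socs genes among their targets. SOCS proteins then act as brakes: an SH2 domain binds phosphorylated tyrosines on receptors or kinases, and a SOCS box recruits a ubiquitin ligase built on Cullin-5 that marks the bound protein for degradation. SOCS1 and SOCS3 also carry a short region that blocks JAK activity directly. In intestinal epithelium, SOCS3 is known as the brake on STAT3 signals from IL-22 and IL-6 family cytokines, and SOCS1 as the brake on interferon gamma signalling.

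Of the 8 members, 4 (Cish, Socs1, Socs3 and Socs4) had an entry in the RefSeq promoter table (GRCm38.p6), 250 bases before to 50 bases after the annotated start. They were searched for TTCNNNGAA, the core letters of a STAT site, which reads the same on both strands, and for GAAANNGAAA, the core of an interferon-regulatory-factor site, on both strands. The promoters of Socs1 and Socs3 are shown because both genes reached 2-fold between genotypes in ileum. That of Cish, another STAT-inducible brake, is shown beside them, although Cish reached 2-fold in no comparison. The promoters are printed 5′ to 3′ on the gene's strand, with matches to either pattern in capitals.
Socs1, chr16:10785487-10785786, minus strand: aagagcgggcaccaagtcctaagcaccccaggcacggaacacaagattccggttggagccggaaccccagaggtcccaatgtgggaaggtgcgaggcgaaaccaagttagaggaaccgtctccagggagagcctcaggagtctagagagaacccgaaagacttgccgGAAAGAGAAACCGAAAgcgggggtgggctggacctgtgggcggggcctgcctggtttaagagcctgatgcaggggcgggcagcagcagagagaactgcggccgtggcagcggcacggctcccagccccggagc
Socs3, chr11:117969317-117969616, minus strand: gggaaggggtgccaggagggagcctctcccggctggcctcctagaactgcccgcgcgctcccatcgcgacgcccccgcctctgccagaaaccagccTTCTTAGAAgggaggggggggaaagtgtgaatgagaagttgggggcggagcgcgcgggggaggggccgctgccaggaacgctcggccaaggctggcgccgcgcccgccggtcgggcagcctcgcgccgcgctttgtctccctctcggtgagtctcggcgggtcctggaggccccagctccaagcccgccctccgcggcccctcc
Cish, chr9:107296409-107296708, plus strand: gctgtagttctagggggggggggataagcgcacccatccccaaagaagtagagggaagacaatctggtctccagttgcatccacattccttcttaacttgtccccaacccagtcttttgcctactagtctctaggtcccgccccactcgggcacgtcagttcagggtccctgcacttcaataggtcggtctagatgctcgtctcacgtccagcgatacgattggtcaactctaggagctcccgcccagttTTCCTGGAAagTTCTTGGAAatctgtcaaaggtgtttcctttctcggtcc
Socs1 held no STAT pattern in this window and 2 overlapping matches to the interferon pattern, starting 83 and 77 bases before the annotated start. Socs3 held 1 STAT match, 154 bases before the start, and no interferon match. Cish held 2 STAT matches, at the annotated start and 11 bases after it. Socs4 held neither. Of all 32851 promoters in the table, 8.30% held the STAT pattern at least once and 0.457% at least 2 times, while 3.44% held the interferon pattern at least once and 0.225% at least 2 times. A match describes letters and not a site in use.

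The array read Socs1 and Socs3 through 1 probe of 60 bases each, at chr16:10783951-10784010 and chr11:117827480-117827539 in mm9, the build of the probe annotation. The first 30 bases of each probe identify what was measured.
Socs1 probe: gagggtctctggcttcatttttctgctgtg
Socs3 probe: ccttcgaggctgtctgaagatgcttgaaaa
No gene model of mm9 was used here, so the exon or UTR that a probe lies in is not stated.

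Between 57.4% and 60.4% of the probes on an array were well above background and no spot was saturated. Dao itself had signals of 144.5 in ileum G181R, 156.9 in ileum WT, 1239 in jejunum G181R and 1309 in jejunum WT. The G181R allele changes an amino acid, so this RNA level does not check the genotype labels. Fabp6, the ileal bile acid binding protein, and Lct, the lactase of the jejunum, fitted the tissue labels. Fabp6 gave 162699 and 179372 in the ileal pools, against 17.0 and 11.2 in the jejunal pools, and Lct gave 133.9 and 90.6 in ileum, against 51731 and 69632 in jejunum (G181R before WT in each pair). All 12 absorptive epithelium markers were well above background on every array, with a median log2 difference between genotypes of -0.05 in ileum and 0.03 in jejunum.

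The first comparison asks how the brakes stood in G181R mice relative to wild-type mice of the same tissue. The threshold for counting a member was 2-fold, a log2 difference of 1, at a probe well above background on both arrays. In ileum, Socs1 and Socs3 were higher in G181R mice and the other 6 members were within 2-fold. In jejunum, Socs3 alone of the 8 was higher and the other 7 lay within 0.3 on the log2 scale. The 2 members counted as higher in ileum compare with 2% of all 21608 genes measured there, and the 1 in jejunum with 0.763% of 21354 genes. No member was at least 2-fold lower in either tissue, against 3.21% of genes in ileum and 0.749% in jejunum. The median of the 8 members was -0.06 in ileum and -0.01 in jejunum, beside 0.03 and -0.01 over all genes.

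**Figure D1:**
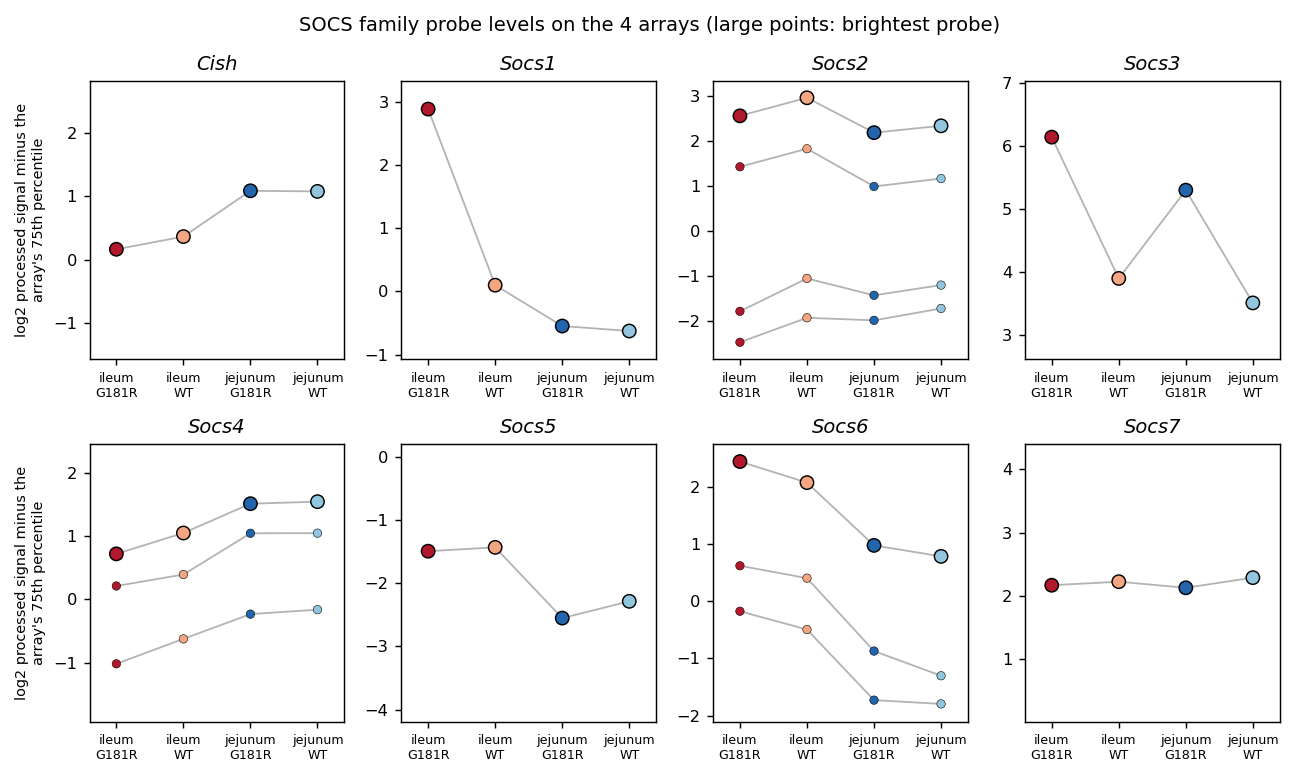
Level of each SOCS family probe on the 4 arrays, as the log2 processed signal minus the array's 75th percentile (vertical axis, own range in each panel), for ileum G181R, ileum WT, jejunum G181R and jejunum WT from left to right. Each point is 1 array of pooled RNA; large points are the brightest probe of a gene and small points its other probes well above background. Socs1 stands high on the ileum G181R array alone, Socs3 on both G181R arrays, and Socs7 is nearly level.

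Socs3 encodes the brake that binds gp130, the shared receptor of the IL-6 family, and JAKs, and it is itself a STAT3 target. Its processed signal, a background-subtracted fluorescence in arbitrary units, was 12324 in ileum G181R, 2761 in ileum WT, 6284 in jejunum G181R and 1782 in jejunum WT. Both G181R pools were thus above both wild-type pools. After scaling to the 75th percentile Socs3 was 4.71-fold higher in G181R ileum (log2 2.24, rank 46 from the highest of 21608 genes) and 3.45-fold higher in G181R jejunum (log2 1.78, rank 33 of 21354). Its genotype difference in ileum exceeded that in jejunum by 0.45 on the log2 scale, and by 0.07 with quantile normalization. In bulk RNA of this kind, a change in the number of cells of a type and a change in RNA per cell cannot be told apart.

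Socs1 encodes the brake on JAKs downstream of interferon gamma and of gamma-chain cytokines. Its signal was 1296 in ileum G181R, 198 in ileum WT, 109 in jejunum G181R and 101 in jejunum WT. The ileum G181R pool stood apart from the other 3. Socs1 was 6.90-fold higher in G181R ileum (log2 2.79, rank 15 of 21608) and 1.06-fold higher in G181R jejunum (log2 0.08). The genotype difference was therefore 2.71 larger in ileum, rank 16 among 20543 genes measured on all 4 arrays, where 1.75% were at least 1 more positive in ileum. Socs1 was the only one of the 8 members past that size. With 1 array a group, this difference between tissues was not tested.

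Cish and Socs2 encode the brakes on STAT5 signals from growth hormone, prolactin and related cytokines, and mice without SOCS2 grow larger than normal. Cish (chr9:107204196-107204255) had signals of 196 in ileum G181R, 237.7 in ileum WT, 339 in jejunum G181R and 330 in jejunum WT, with log2 differences of -0.20 in ileum and 0.01 in jejunum. The jejunal difference was below the spread between spots. Socs2 at its brightest probe (chr10:94875066-94875125) had signals of 1030 in ileum G181R, 1435 in ileum WT, 725 in jejunum G181R and 787 in jejunum WT. All 4 Socs2 probes were lower in G181R mice in both tissues, by log2 differences of -0.73 to -0.40 in ileum and -0.26 to -0.15 in jejunum. None of these 8 values reached 2-fold.

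Socs4 and Socs5 encode the pair best known for binding the epidermal growth factor receptor. Socs4 at its brightest probe (chr14:47915220-47915279) had signals of 288.6 in ileum G181R, 383 in ileum WT, 456 in jejunum G181R and 456 in jejunum WT. Its 3 probes gave differences of -0.39 to -0.18 in ileum, so the ileum G181R pool was the lowest at each, while the jejunal values lay between -0.07 and -0.0020. Socs5 (chr17:87533521-87533580) was dim, with signals of 62.2 in ileum G181R, 68.4 in ileum WT, 27.2 in jejunum G181R and 32.0 in jejunum WT. Its genotype differences were -0.06 in ileum and -0.27 in jejunum.

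Socs6 and Socs7 encode larger family members that bind the stem cell factor receptor KIT, insulin receptor substrates and the adaptor NCK. Socs6 at its brightest probe had signals of 957 in ileum G181R, 782 in ileum WT, 315 in jejunum G181R and 269.5 in jejunum WT. Its 3 probes above background were all higher in G181R mice, by 0.22 to 0.37 in ileum and 0.07 to 0.43 in jejunum, short of 2-fold. Socs7 (chr11:97259763-97259822) varied least of the 8 at the brightest probe, with signals of 787 in ileum G181R, 863 in ileum WT, 698 in jejunum G181R and 762 in jejunum WT. Its level spanned 0.16 on the log2 scale over the 4 arrays, against 3.51 for Socs1 and 2.62 for Socs3.

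**Figure D2:**
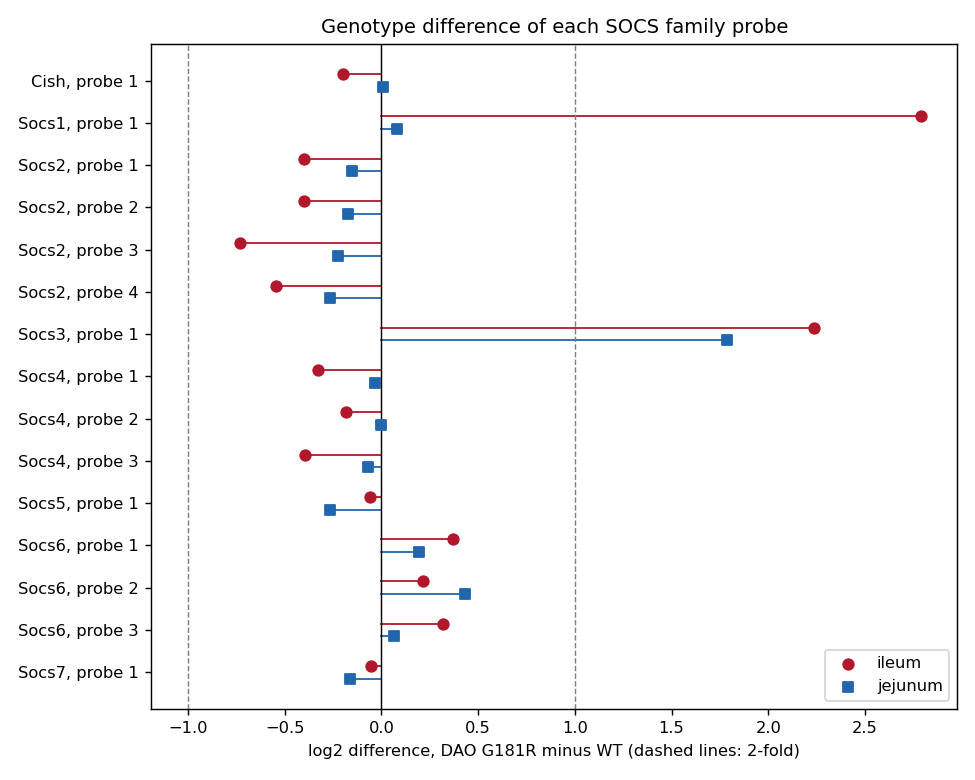
Genotype difference (log2, G181R minus WT, horizontal axis) at each of the 15 SOCS family probes well above background, in ileum (red circles) and jejunum (blue squares). Dashed lines mark 2-fold. Socs3 lies beyond the line in both tissues (2.24 and 1.78), Socs1 in ileum alone (2.79), and every other probe lies within 2-fold.

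**Figure D3:**
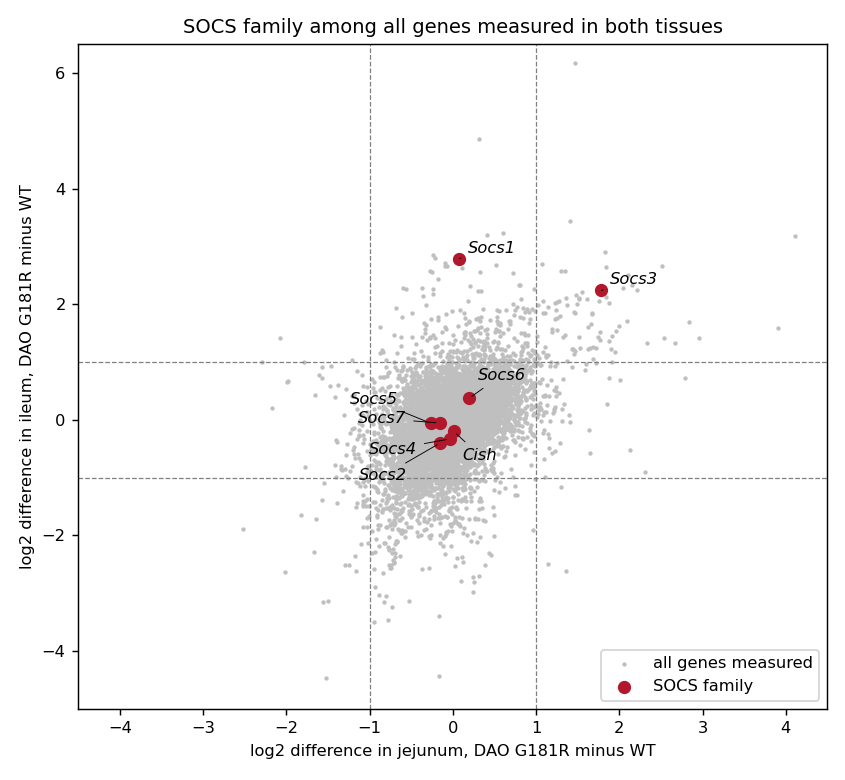
Log2 difference, G181R minus WT, in ileum (vertical axis) against that in jejunum (horizontal axis) for all genes measured in both tissues (grey) and the 8 SOCS family genes (red). Dashed lines mark 2-fold. Socs3 lies past 2-fold on both axes and Socs1 on the ileal axis alone.

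The ileum was next compared with the jejunum within each genotype. In G181R mice 3 members (Socs1, Socs5 and Socs6) were at least 2-fold higher in ileum, against 7.3% of 21605 genes, and in wild-type mice 1 (Socs6), against 7.42% of 20879 genes. No member was at least 2-fold lower in ileum in either genotype, where 8.73% (G181R mice) and 9.11% (WT mice) of genes were. The members' median was 0.61 in G181R mice and 0.51 in WT mice, beside -0.03 and -0.05 over all genes. Socs6 was 2.77-fold higher in ileum in G181R mice and 2.45-fold higher in WT mice, and its 3 probes lay between 1.47 and 1.56 and between 1.29 and 1.71 on the log2 scale. In the mean of all 5 Socs6 probes, which takes in the 2 at background, these values were 0.99 and 0.74, below 2-fold. Socs5 was 2.08-fold higher in ileum in G181R mice and 1.81-fold higher in WT mice. With normexp correction, which pulls dim signals together, its log2 differences were 0.43 and 0.33 in place of 1.06 and 0.85.

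For Socs1, ileum exceeded jejunum 10.8-fold in G181R mice (log2 3.43, rank 95 of 21605) and 1.65-fold in WT mice (log2 0.73). Socs3 was 1.79-fold higher in ileum in G181R mice and 1.31-fold higher in WT mice. Cish and Socs4 ran the other way. Cish was 1.90-fold lower in ileum in G181R mice and 1.64-fold lower in WT mice, and the 3 probes of Socs4 lay between -0.83 and -0.79 and between -0.66 and -0.46. The 4 Socs2 probes disagreed in sign. The 2 brightest were higher in ileum, at 0.37 and 0.44 in G181R mice and 0.62 and 0.66 in WT mice. The 2 dimmer probes gave -0.36 and -0.49 in G181R mice and 0.15 and -0.21 in WT mice. No single direction is therefore given for Socs2. Socs7 differed by 0.04 in G181R mice and -0.06 in WT mice.

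**Figure D4:**
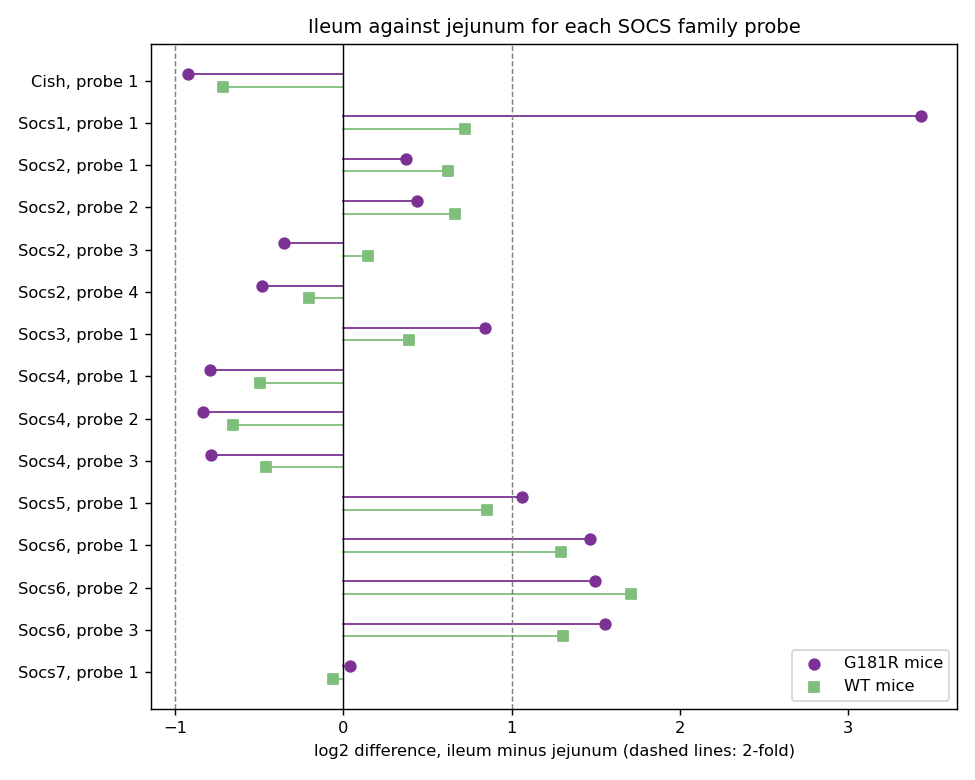
Tissue difference (log2, ileum minus jejunum, horizontal axis) at each of the 15 SOCS family probes well above background, in G181R mice (purple circles) and WT mice (green squares). Dashed lines mark 2-fold. The 3 Socs6 probes lie beyond 2-fold in both genotypes, Socs1 and Socs5 in G181R mice alone, and Cish and Socs4 lie below 0.

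The brakes act on a pathway whose other parts were read from lists. None of the 10 JAK and STAT genes read here reached 2-fold between genotypes in either tissue, and their median was 0.06 in ileum and -0.03 in jejunum. Stat3, which drives Socs3, gave 0.36 in ileum and 0.30 in jejunum. Stat5a and Stat5b, the factors behind Cish and Socs2, gave 0.17 and -0.31 in ileum and 0.02 and -0.03 in jejunum. The kinases Jak1, Jak2 and Tyk2, which SOCS1 and SOCS3 block, gave -0.06, -0.33 and -0.35 in ileum and -0.03, 0.11 and -0.13 in jejunum.

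Many cytokine ligands were dim, and 17 of the 34 on the array were well above background nowhere. Of those measured, 1 of 12 was at least 2-fold higher in G181R ileum and 2 of 13 in G181R jejunum, and none was at least 2-fold lower. The ileal one was Thpo, the growth factor of platelet precursors, with log2 differences of 1.22 in ileum and 1.43 in jejunum, while its other probe gave -0.12 and -0.06. The second jejunal one was Il7, a growth factor of lymphocytes, 2.14-fold higher (log2 0.23 with normexp). Il22, the lymphoid cytokine that acts on epithelial STAT3, had a signal of 36.9 in ileum G181R and was not well above background in ileum WT, at least 5.36-fold higher. In jejunum its signal was 8.99 in G181R mice and 5.99, again not well above background, in WT mice. The lowest signal well above background on the jejunum WT array was 7.36, so no fold is given for jejunum. Ifng, which encodes interferon gamma, was well above background on the ileum G181R array alone, with a signal of 12.3, at least 1.81-fold above ileum WT. Il6, another STAT3 cytokine, was well above background on the jejunum WT array alone, at least 2.95-fold lower in G181R jejunum.

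Receptors lay closer together, with 0 of 34 measured at least 2-fold higher in either tissue and 1 lower in ileum. That receptor was Ghr, the growth hormone receptor that SOCS2 restrains, with signals of 75.4 in ileum G181R, 200.2 in ileum WT, 80.9 in jejunum G181R and 129.9 in jejunum WT. Its difference was -1.33 in ileum, where its 4 probes ran from -2.04 to -1.27, and -0.72 in jejunum, and normexp left it at -0.83 in ileum. Il6st, which encodes gp130, gave 0.35 in ileum and 0.54 in jejunum. Il4ra, a receptor chain for IL-4 and IL-13 that SOCS1 restrains, gave 0.81 in ileum and 0.88 in jejunum, and 0.02 and 0.57 at its other probe. The interferon gamma receptor chains Ifngr1 and Ifngr2 gave 0.12 and -0.60 in ileum and 0.11 and -0.33 in jejunum. Prlr, the prolactin receptor, gave -0.35 in ileum and -0.14 in jejunum.

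Of 14 receptor kinases and adaptors bound by SOCS proteins, none reached 2-fold in either tissue (median -0.16 in ileum and -0.12 in jejunum). Egfr, bound by SOCS4 and SOCS5, gave -0.01 in ileum and -0.11 in jejunum. Kit, bound by SOCS6, gave -0.77 in ileum and -0.08 in jejunum. The insulin receptor substrates Irs1 and Irs2 gave -0.64 and -0.82 in ileum and -0.13 and -0.64 in jejunum. Nck1, an adaptor bound by SOCS7, gave -0.26 in ileum and -0.18 in jejunum.

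The machinery that SOCS proteins recruit was nearly level. None of 9 ubiquitin ligase partners of the SOCS box reached 2-fold. Their medians were 0.17 in ileum and 0.11 in jejunum, with 8 of 9 and 7 of 9 above 0. Among other proteins with a SOCS box, 2 of 19 were at least 2-fold higher in G181R ileum and 1 of 20 in G181R jejunum, with medians of -0.14 and -0.03. The gene in both tissues was Spsb1, whose protein marks nitric oxide synthase 2 for degradation, at 1.90 in ileum and 1.24 in jejunum, and 0.08 and 0.73 at its other probe above background. The other was Asb11, a dim probe at 1.01 in ileum (0.25 with normexp). Spsb4, a relative of Spsb1, was not well above background in ileum G181R and was at least 6.09-fold lower there than in ileum WT.

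In ileum, brakes of other families differed less than Socs1 and Socs3. Of 14 other brakes on JAK-STAT signalling, phosphatases and PIAS proteins among them, none reached 2-fold (median -0.05 in ileum and -0.10 in jejunum). With quantile normalization or median centring, 1 was at least 2-fold higher in ileum. With the mean of all probes of a gene, 2 were at least 2-fold lower in jejunum. Usp18, the brake on the type I interferon receptor, lay just under 2-fold in ileum, at 1.99-fold higher, with -0.70 on the log2 scale in jejunum. It was named after its values were seen. Of 18 inducible brakes on inflammation, 4 were at least 2-fold higher in G181R ileum (2 with normexp, 1 with the mean of all probes of a gene) and 0 in jejunum, with medians of 0.34 and 0.17. They were Il18bp, the decoy for IL-18 (log2 1.51), the NF-kappaB regulators Tnip3 (1.49, and 0.41 with normexp) and Nfkbiz (1.14, with 0.42 at another probe), and the RNase gene Zc3h12a (1.01, and 0.79 with normexp).

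**Figure D5:**
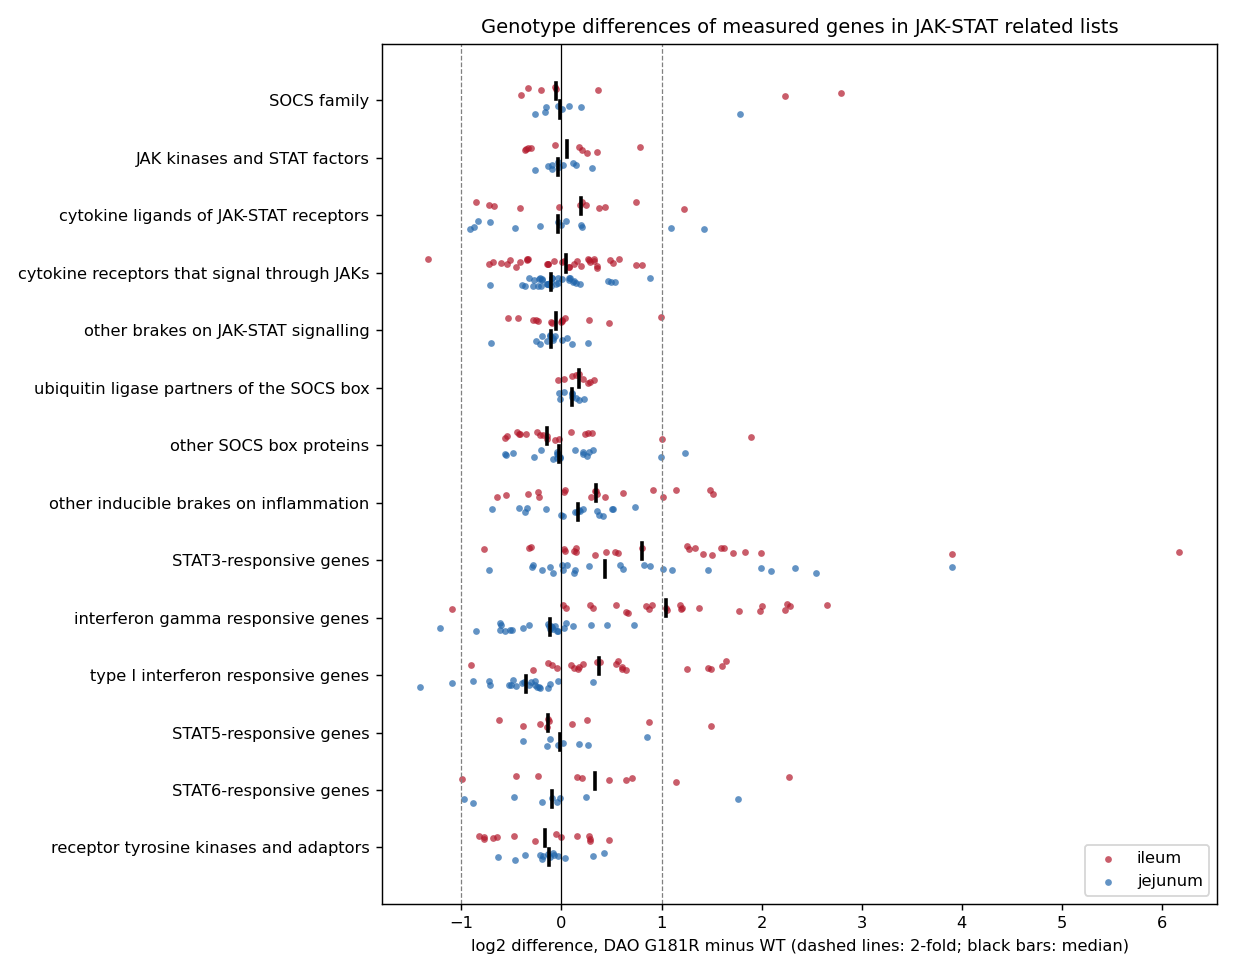
Genotype difference (log2, G181R minus WT, horizontal axis) of each measured gene in the SOCS family and 13 related lists, in ileum (red, upper row of each list) and jejunum (blue, lower row). Black bars are list medians and dashed lines mark 2-fold. STAT3-responsive genes spread to the right in both tissues (medians 0.81 and 0.43), and interferon gamma responsive genes in ileum alone (medians 1.05 and -0.11).

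Genes known to respond to the STATs that induce each brake were read beside the brakes. These lists were chosen with earlier results of these data known, so their counts beside the shares of all genes are descriptive only. Of the STAT3-responsive genes, 12 of 25 measured in ileum and 8 of 24 in jejunum were at least 2-fold higher in G181R mice and none was at least 2-fold lower. With normexp 11 in ileum and 6 in jejunum were at least 2-fold higher. The list medians were 0.81 in ileum and 0.43 in jejunum. With the mean of all probes of a gene they were 0.57 and 0.25, and with no background filter the ileal median was 1.26. The shares of all genes at least 2-fold higher were 2% and 0.763%. The list holds Il4ra and Osmr in common with the receptor list, and S100a8 and S100a9 with the neutrophil markers. In ileum the highest of those well above background on both arrays were Lrg1, a secreted glycoprotein of the acute phase (6.17), and Fut2, the fucosyltransferase of the epithelial surface (3.90). In jejunum the highest by the same measure were the acute-phase apolipoprotein gene Saa2 (3.90) and Duoxa2 and Duox2, the maturation factor and the oxidase that produce hydrogen peroxide at the cell surface (2.54 and 2.33). With normexp, Fut2 in ileum stood at 2.33, and Saa2 and Duox2 in jejunum at 2.49 and 1.17. Cebpd, a transcription factor gene and STAT3 target, gave 1.25 in ileum and 1.11 in jejunum. Cxcl5 and Cxcl1, chemokines that attract neutrophils, were not well above background in ileum WT and were at least 26.6-fold and 17.3-fold higher in G181R ileum. In jejunum too they were well above background in G181R mice and not in WT mice. The G181R jejunum signals were dim, at 11.2 for Cxcl5 (at least 1.40-fold higher) and 25.9 for Cxcl1 (at least 3.02-fold higher).

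Interferon gamma responsive genes are known to share an inducing signal with Socs1. In ileum 13 of 24 were at least 2-fold higher in G181R mice (9 with normexp) and 1 was lower, with a median of 1.05. In jejunum 0 of 25 were higher and 1 was lower, with a median of -0.11. The difference between tissues was not tested. The highest in ileum among those well above background on both arrays were the interferon-induced GTPase gene Iigp1 (2.65), Nlrc5, which switches on MHC class I genes (2.28), the GTPase gene Igtp (2.25), the chemokine gene Cxcl9 (2.23), Gbp4 (2.01) and the chemokine gene Cxcl10 (1.99). With normexp, Cxcl9 stood at 1.48 and Gbp4 at 1.25. The one lower in ileum was Ido1, which encodes a tryptophan-degrading enzyme (-1.09), and the one lower in jejunum was Gbp6 (-1.21, and -0.78 with normexp). Between tissues this list and Socs1 differed. In WT mice 12 of 24 list genes were at least 2-fold lower in ileum than in jejunum, against 9.11% of all genes. The list median for ileum minus jejunum was -1.01 in WT mice and 0.07 in G181R mice. Socs1 was higher in ileum in both, at 0.73 in WT mice and 3.43 in G181R mice.

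Type I interferon responsive genes were at least 2-fold higher for 5 of 22 in G181R ileum (3 with normexp) and for 0 of 22 in jejunum, where 2 were lower, with medians of 0.37 and -0.35. The ileal genes included Ifit2 (1.65, and 0.60 with normexp) and Ifi44 (1.61, and 0.86 with normexp), and the jejunal pair was Ifit3 (-1.41) and Rsad2 (-1.09). STAT5-responsive genes, which stand beside Cish and Socs2, had 1 of 10 higher in ileum, the cyclin gene Ccnd1 (1.50), and 0 of 8 in jejunum, with medians of -0.13 and -0.01. STAT6-responsive genes had 2 of 10 higher in ileum and 1 of 9 in jejunum, with medians of 0.34 (0.15 with normexp) and -0.09. Retnlb, a goblet cell defence protein, gave 2.27 in ileum and 1.77 in jejunum (0.89 with normexp), and Pdcd1lg2, a ligand of the receptor PD-1, was higher in ileum alone (1.15, and 0.29 with normexp).

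Markers of regional enterocytes and of other cells also differed between the pools. Ileal enterocyte markers were below 0 for 7 of 7 in G181R ileum, 1 of them at least 2-fold lower (median -0.37). Jejunal enterocyte markers were below 0 for 7 of 8 in G181R jejunum, none at 2-fold (median -0.31). Paneth cell markers were above 0 for 7 of 7 in jejunum, 1 at least 2-fold higher (median 0.48), with a median of 0.08 in ileum. Over all genes, 2% were at least 2-fold higher and 3.21% lower in G181R ileum, and 0.763% and 0.749% in G181R jejunum. In ileum, 9 of 11 smooth muscle markers were at least 2-fold lower in G181R mice, with a median of -2.51 and summed signals of 7719 in ileum G181R, 19545 in ileum WT, 9094 in jejunum G181R and 8107 in jejunum WT. Of the adipocyte markers, 4 of 6 were at least 2-fold lower in G181R ileum, with a median of -1.06 there and -0.50 in jejunum. Their summed signals were 2764 in ileum G181R, 6007 in ileum WT, 498 in jejunum G181R and 717 in jejunum WT. Tuft cell markers were below 0 for 6 of 6 in both tissues, 2 of them at least 2-fold lower in ileum, with medians of -0.84 in ileum and -0.21 in jejunum. Fibroblast markers were below 0 for 8 of 8 in both tissues, 1 of them at least 2-fold lower in ileum, with medians of -0.59 and -0.25. Nerve and glia markers had 2 of 7 at least 2-fold lower in ileum and a median of -0.40, against 0.13 in jejunum. Enteroendocrine markers had 1 of 10 at least 2-fold lower in ileum and a median of -0.53, and plasma cell markers had none of 6 at 2-fold and a median of 0.64. Of the macrophage and dendritic cell markers, 11 of 12 were above 0 in ileum with a median of 0.29, 1 was at least 2-fold higher, and the median in jejunum was -0.03. Their summed signals were 85096 in ileum G181R, 82000 in ileum WT, 51078 in jejunum G181R and 39689 in jejunum WT. These unscaled sums weigh the brightest markers most, and most markers of the list ran the other way between tissues. The list median for ileum minus jejunum was -0.26 in G181R mice (8 of 12 below 0) and -0.75 in WT mice (9 of 12 below 0). B cell markers had medians of 0.68 in ileum and -0.67 in jejunum, with summed signals of 2131 in ileum G181R, 1417 in ileum WT, 305 in jejunum G181R and 449 in jejunum WT. In ileum none of 9 reached 2-fold and 7 were above 0. In jejunum 2 of 7 were at least 2-fold lower in G181R mice and 6 were below 0. Neutrophil markers had 2 of 8 at least 2-fold higher in ileum and a median of 0.02. S100a8 and S100a9 of that list were well above background on the ileum G181R array alone, and Ngp was well above it on no array. Markers of innate lymphoid, NK and T cells had medians of 0.00 in ileum and -0.36 in jejunum, with 9 of 17 and 15 of 16 below 0. The part of these cell types in the Socs1 and Socs3 differences was not tested.

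Genes with the pattern most like a member's were searched for members whose range over the 4 arrays reached 1 on the log2 scale. Likeness was the root mean square distance between the 4 centred log2 values, over 13844 named genes well above background on all 4 arrays. Nearest to Socs1 were Bhmt, which encodes a homocysteine methyltransferase (distance 0.28, ileal genotype difference 2.55), Ly6c2, a monocyte surface protein (0.28, 2.26), and the growth factor gene Hgf (0.29, 2.06). Nearest to Socs3 were the glycosyltransferase gene B3gnt7 (distance 0.11), the sulfotransferase gene Chst4 (0.16) and the protease gene Prss16 (0.22). Their genotype differences in ileum were 2.08, 2.64 and 1.99, and those in jejunum 1.51, 1.84 and 1.49. Nearest to Socs6 were Spdef, the goblet cell transcription factor (distance 0.03), the transporter gene Slc7a6 (0.04) and the vesicle GTPase gene Rab3d (0.04). Nearest to Socs5 were Unc13d, a vesicle priming factor (0.03), Pir (0.04) and the kinase gene Nek1 (0.04). With 4 arrays, a near pattern describes these pools alone.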

How the data were processed

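RNA was hybridised to 1-colour (Cy3) Agilent arrays, 1 for each of 4 groups. The deposited scanner files hold intensity values, background-subtracted and detrended within the array by Agilent Feature Extraction 11.5.1.1 per the file headers, and other values, 0 or 1 flags that mark saturated and outlier spots and spots well above background. A deposited table gives log2 values, which equal the scanner log2 minus 1 constant per array for 95.8% of 56605 probes (tolerance 0.01). Another 2356 probes hold a fill value, none of them a member's. Its centring is known only by that match, so the table served as an alternative.

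Non-outlier spots of a probe were averaged as log2 intensity and the array's 75th percentile was subtracted (Python 3.11.15, numpy 2.4.6, pandas 2.3.3). The brightest probe stood for its gene, 32994 probes being named through their accession and 23611 by the array design. A gene counted as different from 2-fold with both arrays well above background. Where 1 array was not, the fold is "at least", set against the higher of the dim probe's signal and that array's lowest signal well above background. This limit is nominal, since some probes not well above background were brighter than that lowest signal. Groups of 1 array allow no test, and precision is limited by the number of arrays. The counting steps were tested on simulated data. Alternatives were normexp (limma 3.58.1, R 4.3.3, offset 50), quantile scaling, median centring, probe means, no background filter and the deposited table.

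The members and lists were chosen with earlier results of these data known. The text names every member, list genes at least 2-fold different between genotypes (at most 6 per list and comparison), the direct partners of members whatever their value, and the 3 genes nearest in pattern. Some genes that this rule allows are not reported here.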

Additional observations from a re-analysis of the deposited data

Results flagged for a closer look

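Cish was the only member whose genotype difference had opposite signs in ileum and jejunum, at -0.20 and 0.01. The ileal difference minus the jejunal one was -0.21. With 1 array a group this difference was not tested, and the jejunal value was smaller than the spread between spots.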

How the results depend on the processing

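Between genotypes, as many members were counted at 2-fold under each alternative run as in the report. For ileum minus jejunum, 0 members in place of 1 were higher in WT mice with the mean of all probes of a gene, which takes in the 2 Socs6 probes at background. In G181R mice the count was 2 in place of 3 with that mean (without Socs6) and with normexp (without Socs5). Over all alternatives Socs1 ran from 2.49 to 2.84 in ileum and Socs3 from 1.98 to 2.28 in ileum and 1.74 to 1.91 in jejunum. Socs5 ran from 0.43 to 1.12 and Socs6 from 0.99 to 1.53 for ileum minus jejunum in G181R mice. No value past 2-fold changed sign. Of the member values and family medians under the alternatives, 76 moved by more than the spot spread and 239 did not. The mean over probes above background was chosen after seeing the data. With normexp, 60 genes were at least 2-fold higher and 33 lower in G181R jejunum, in place of 163 and 160 (64.5% higher in place of 50.5%), and 180 and 216 in ileum, in place of 432 and 693. For ileum minus jejunum, normexp gave 769 and 975 in G181R mice in place of 1578 and 1887, and 785 and 1016 in WT mice in place of 1549 and 1902. For the difference of the genotype differences it gave 114 and 112 in place of 360 and 423. With no background filter, 1175 and 1664 genes were counted in jejunum and 1519 and 2017 in ileum between genotypes, 2954 and 3963 in G181R mice and 2974 and 4058 in WT mice between tissues, and 2710 and 2333 for the difference of differences, and the median of all genes lay at -0.10, -0.12, -0.07 and -0.27 for the first 4. No paired analysis was possible because each group is 1 array of pooled RNA. Members with dim probes, Socs5 above all, are limited by their signal over background.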
